A study of Mus musculus with 2 samples.

Results

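The autophagy and lysosome genes described here are 36 mouse genes chosen by name: 5 of the initiation complex, 7 of nucleation and membrane supply, 7 of the conjugation machinery, 5 ATG8 proteins, the receptor Sqstm1 with the regulator Tfeb, 3 innate immune regulators, 3 lysosomal membrane proteins and 4 cathepsins. They were taken from the 31053 genes of the deposited count matrices by gene symbol, and all 36 were present. The cells were Tom+ cells sorted from ileal crypts of wild-type Atoh1CreER-T2;R26RTom mice. In these mice tamoxifen-activated Cre, made from the Atoh1 locus, switches on a Tomato reporter, so the sort favours cells in which Atoh1 has been active. Each mouse got tamoxifen (1 mg/mL) into the peritoneum in 2 injections spaced by 24 h. Ileal crypts were taken 12 h after the later injection. There were 2 libraries of this single group, with no untreated or mutant samples, and the labels used here do not say whether they came from separate mice. Ages of the mice are not given in the sources used here.

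Macroautophagy encloses cell contents in a double membrane and delivers them to the lysosome. The ULK complex starts the process, the class III phosphatidylinositol 3-kinase complex marks the membrane, a pair of ubiquitin-like conjugation systems attaches ATG8 proteins (LC3 and GABARAP) to it, and receptors such as p62 bind both cargo and ATG8. Lysosomal membrane proteins and cathepsins then carry out the degradation. In the small intestine the pathway is best known from Paneth cells, which store antimicrobial peptides in large granules, and variants of ATG16L1, NOD2, IRGM and LRRK2 in people are linked to Crohn's disease.

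The authors' cell table lists 11562 cells, 5305 in replicate 1 and 6257 in replicate 2, in 12 named classes. The class names PANETH, PANETH-PRE, GOBLET, GOBLET-PRE, GP, SEC-PRO, TUFT, EC, NON-EC, EEC-PRE, ENTERO-PRO and ISC are used as the table gives them. Raw counts of unique molecular identifiers (UMIs, each standing for a captured RNA molecule) were added up per class and library, from 129631 to 13770059 UMIs per sum. Fixed markers followed the names of the Paneth and goblet classes: 7 Paneth markers such as Lyz1 and Defa24 summed to 486800 and 534200 unscaled CPM (each class's UMI counts scaled to the same total, with no TMM factor) in PANETH. Their sum was at most 25730 unscaled CPM in any class other than PANETH and PANETH-PRE, where it was 236000 and 224300. The 6 goblet markers such as Muc2 summed to 348500 and 352400 unscaled CPM in GOBLET and 125700 and 113200 in GOBLET-PRE. They were less confined, with 59460 and 60190 in GP, 51790 and 54410 in ENTERO-PRO and 42110 and 39350 in SEC-PRO. The GOBLET class held only 42 and 84 cells. Of 11 macrophage and other myeloid markers, 9 were at 0 in PANETH and all 11 in GOBLET, with sums of 2.72 and 1.94 unscaled CPM in PANETH. The libraries shared 12 cell barcodes, 0.226% of the listed cells of replicate 1 and 0.192% of replicate 2.

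Levels below are CPM scaled by TMM factors, a normalization computed from abundant genes that sets most genes of 2 classes level. PANETH had the most extreme TMM factors. They were 0.23 and 0.256, against 0.657 to 1.33 elsewhere, and its cells carried a median of 23375 and 12874 UMIs, against 6600 and 4342.5 in PANETH-PRE. TMM-scaled CPM therefore compares a member with the bulk of other genes, while its share of all UMIs (unscaled CPM) and its UMIs per cell are different quantities. A gene was called when its adjusted p in edgeR's quasi-likelihood test (Benjamini-Hochberg over 10994 genes) was under 0.05. The authors' classes are of the same cells whose genes were tested, so the p-values describe differences between these classes in 2 libraries and no more.

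Of the 36 genes, 34 had enough counts to be tested. Lrrk2, a kinase linked to Paneth cell granules in mice, had 0 of 59671464 UMIs in listed cells, which allows up to 0.0503 unscaled CPM at the 3-count limit. Nod2, the cytosolic sensor of bacterial muramyl dipeptide, had 46 UMIs, of which 20 lay in GOBLET-PRE and 2 in PANETH, and could not be tested. Differences in expression of Nod2 and Lrrk2 between classes were therefore not detectable at this depth. Irgm1, the mouse immunity-related GTPase of the IRGM family, was tested and not called in any comparison. It had 15.5 and 15.1 CPM in PANETH, against 25.5 and 12.9 CPM in PANETH-PRE, and its highest mean on that scale was in GOBLET, at 49.4 and 30.9 CPM.

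Over all 12 classes, 29 of the 34 tested members differed between classes, beside 85.4% of all genes tested, a share close to that background. The 5 that were not called were Atg101, Pik3c3, Atg4b, Atg16l1 and Irgm1. Atg16l1, which places the conjugation machinery on the membrane, lay between 3.36 and 33.1 CPM in the 24 sums, with 14.6 and 15.1 CPM in PANETH and 19 and 18 CPM in ISC. On the TMM scale PANETH had the highest mean level for 10 of the 34 members, GOBLET for 8 and EC for 7, while those classes were highest for 8.5%, 17.6% and 18.8% of all genes tested. In unscaled CPM PANETH was instead highest for 0 members and lowest for 25, beside 0.346% and 64.1% of all genes, and GOBLET was highest for 3 and EC for 13. ISC had the lowest level for 13 of the 34 members on the TMM scale, against 8.75% of all genes, and for 2 in unscaled CPM. On the TMM scale the class with the highest level was the same in both libraries for 18 of the 34.

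The spread over the 24 sums differed by gene, and the orders that follow are those of the TMM scale. Lamp2 ran from 24.9 to 405.5 CPM with a median of 73, and its order put PANETH first (381 and 406 CPM), PANETH-PRE second (178 and 167 CPM) and TUFT last (48.5 and 24.9 CPM). The 9 classes between PANETH-PRE and TUFT lay from 53.8 to 138 CPM and, apart from SEC-PRO, overlapped with their neighbours in this order. Lamp1 ran from 98.1 to 393 CPM with a median of 165, in the order PANETH, GOBLET (286 and 296 CPM) and ENTERO-PRO (247 and 219 CPM) at the top, not overlapping one another, and SEC-PRO and GP at the bottom. Cd63 ran from 114 to 824 CPM with a median of 252, and Sqstm1 from 27.9 to 266 CPM with a median of 71. Both had their highest mean in PANETH on the TMM scale, as did Map1lc3b, which ran from 88.6 to 258 CPM with a median of 121. In replicate 1, however, Sqstm1 was highest in GOBLET.

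Gabarap, an ATG8 protein of the later steps, ran from 164 to 654 CPM with a median of 332. Its 2 GOBLET sums were above all others, PANETH and GOBLET-PRE overlapped in the next place, and its 2 ISC sums were below all others. Ctsd ran from 33.6 to 161 CPM with a median of 83.2 and was highest in GOBLET. Ctsb ran from 29.6 to 207 CPM with a median of 93.8, and Ctsz from 37.3 to 169 CPM with a median of 104. For Ctsz the ENTERO-PRO sums (169 and 164 CPM) stood above the PANETH sums (154 and 141 CPM), and the TUFT and GOBLET sums overlapped at the bottom. Tfeb was the sparsest of these genes, from 0 to 30.4 CPM with a median of 5.15.

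**Figure D1:**
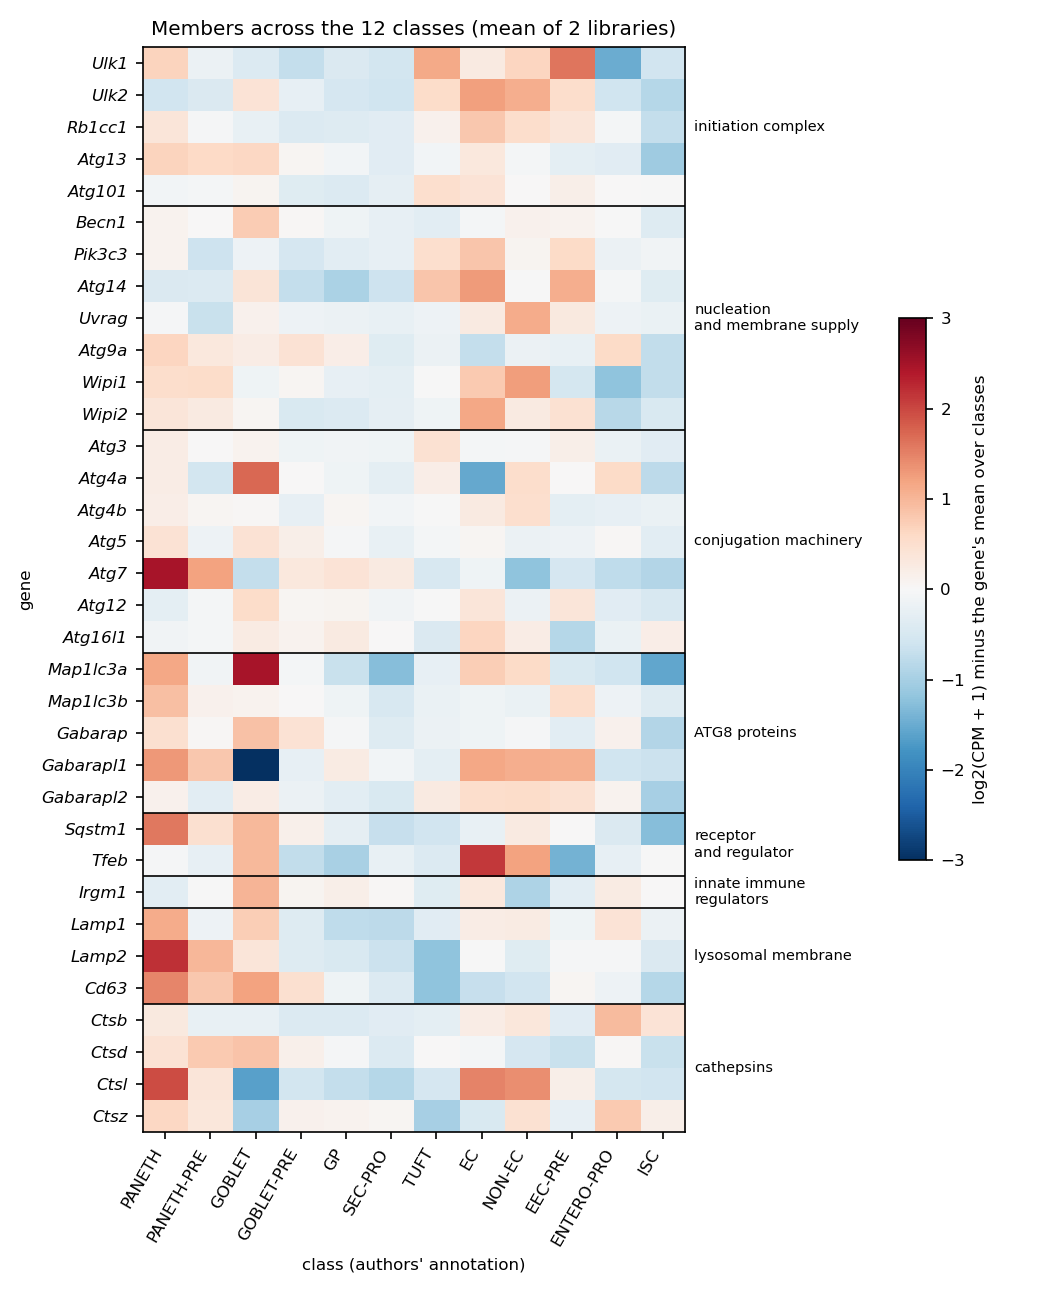
Heatmap of the 34 tested members (rows, grouped by role) in the 12 classes (columns). Colour is log2(CPM + 1) of the mean of 2 libraries minus the gene's mean over classes, on TMM-scaled CPM. Atg7 and Lamp2 are highest in PANETH and Map1lc3a in GOBLET, and Gabarapl1 is at 0 in GOBLET. The PANETH column depends on the scale, since the share of all UMIs was lower in PANETH than in PANETH-PRE for 33 of the 34 members.

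PANETH was set against PANETH-PRE, the other class rich in Paneth markers. On the TMM scale 11 of 34 members were higher in PANETH and 0 lower, beside 5.36% of all genes higher and 2.79% lower. At an unadjusted edgeR p under 0.05, 15 were higher and 1 lower, and the DESeq2 Wald test called 9 higher and 0 lower. The median log2 change of the 34 was 0.42, against 0.089 for all genes tested. The rise covered all 3 lysosomal membrane proteins, 3 of 5 ATG8 proteins, 2 of 7 conjugation genes, 2 of 4 cathepsins and Sqstm1, and none of the 12 initiation and nucleation genes, of which 2 were higher at an unadjusted p under 0.05 (Rb1cc1 and Ulk1). Ulk1 had 16.4 and 19.7 CPM in PANETH, against 7.585 and 11.5 CPM in PANETH-PRE, on 18 and 26 against 11 and 16 UMIs. Such low counts limit what can be called. Of the 15 members averaging a log2 CPM of at least 5, 10 were called. The median log2 change was 0.071 for the 5 initiation genes and 0.098 for the 7 nucleation genes. As a share of all UMIs every one of the 11 was instead lower in PANETH in a fit with unscaled library sizes, where 0 members were called higher and 31 lower, alongside 8987 of 10994 genes lower and a median shift of all genes of -1.71. Counted as UMIs per cell, 15 of the 34 members were higher in PANETH in both libraries and 13 lower in both, against 16.2% and 51% of all genes. Of the 11 called on the TMM scale 10 were among those higher per cell, and the exception was Gabarap, with 2.52 and 1.56 UMIs per PANETH cell, against 2.18 and 1.62 per PANETH-PRE cell. The call of Atg5 was lost with TMM over all genes, with the DESeq2 Wald test and without the library term, and that of Ctsb with the Wald test and without the library term. Gabarap lost its call without the library term. With cells thinned to 2000 UMIs the calls of Atg5 (0.41), Atg7 (0.99), Map1lc3a (0.90), Map1lc3b (0.67), Gabarap (0.40) and Ctsb (0.16) were lost. Their direction was kept, and 5 members were called. Of 18 dissociation and stress genes 3 were higher and 2 lower in PANETH, and their part in the result was not tested.

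Among the conjugation genes, Atg7 encodes the E1-like enzyme that activates both ATG12 and the ATG8 proteins (ENSMUSG00000030314, chromosome 6, 114643097 to 114860614, plus strand, mm10). It had 110 and 107 CPM in PANETH, against 40.7 and 48.9 CPM in PANETH-PRE. Both PANETH libraries stood above every other sum of the study, none of which passed 48.9 CPM. The log2 change of Atg7 was 1.27 (SE 0.18, edgeR adjusted p = 1.17e-07), and it had 0.555 and 0.36 UMIs per PANETH cell, against 0.261 and 0.215 per PANETH-PRE cell. Atg5, which is joined to ATG12, had 79.2 and 57.5 CPM in PANETH, against 49.7 and 40.2 CPM in PANETH-PRE (log2 change 0.59, SE 0.19, edgeR adjusted p = 0.0338). Per cell Atg5 had 0.399 and 0.194 UMIs in PANETH, against 0.319 and 0.177 in PANETH-PRE. The log2 changes of the other 5 conjugation genes ran from -0.24 for Atg12 to 0.93 for Atg4a and were not called.

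Of the ATG8 proteins, Map1lc3a (LC3A; ENSMUSG00000027602, chromosome 2, 155276297 to 155278073, plus strand) had 54.6 and 70.4 CPM in PANETH, against 22.1 and 28.7 CPM in PANETH-PRE. Its log2 change was 1.30 (SE 0.26, edgeR adjusted p = 0.000339), and the libraries of the 2 classes did not overlap. Per cell Map1lc3a had 0.275 and 0.237 UMIs in PANETH, against 0.142 and 0.127 in PANETH-PRE. Map1lc3b (LC3B) had 258 and 220 CPM in PANETH, against 144 and 138 CPM in PANETH-PRE (log2 change 0.76, SE 0.13), and 1.3 and 0.742 UMIs per PANETH cell, against 0.925 and 0.608 per PANETH-PRE cell. Gabarap changed less, with 501 and 462 CPM in PANETH, against 339 and 368 CPM in PANETH-PRE (log2 change 0.44, SE 0.11, edgeR adjusted p = 0.0025). Gabarapl1 and Gabarapl2 had log2 changes of 0.53 and 0.44 that were not called. Sqstm1, which encodes the cargo receptor p62, had 219 and 266 CPM in PANETH, against 91.7 and 132 CPM in PANETH-PRE, a log2 change of 1.13 (SE 0.16, edgeR adjusted p = 1.13e-06). Per cell Sqstm1 had 1.11 and 0.898 UMIs in PANETH, against 0.589 and 0.579 in PANETH-PRE. Tfeb, the transcription factor that drives many lysosomal genes, stayed below 10 CPM in both classes, with 3.64 and 8.32 CPM in PANETH, against 2.07 and 7.9 CPM in PANETH-PRE.

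The lysosomal membrane proteins were the group with all members higher. Lamp1 (ENSMUSG00000031447, chromosome 8, 13159161 to 13175338, plus strand) had 358 and 393 CPM in PANETH, against 141 and 170 CPM in PANETH-PRE. Its log2 change was 1.28 (SE 0.12, edgeR adjusted p = 1.32e-14), and per cell it had 1.8 and 1.33 UMIs in PANETH, against 0.907 and 0.747 in PANETH-PRE. Lamp2, whose protein is needed for autophagosome and lysosome to fuse (ENSMUSG00000016534, chromosome X, 38401357 to 38456454, minus strand), had 381 and 406 CPM in PANETH, against 178 and 167 CPM in PANETH-PRE, a log2 change of 1.19 (SE 0.12, edgeR adjusted p = 1.52e-12). Per cell Lamp2 had 1.92 and 1.37 UMIs in PANETH, against 1.14 and 0.737 in PANETH-PRE. Cd63, a tetraspanin of late endosomes and secretory granules (ENSMUSG00000025351, chromosome 10, 128900989 to 128912822, plus strand), had 824 and 701 CPM in PANETH, against 522 and 448 CPM in PANETH-PRE (log2 change 0.65, SE 0.10), and 4.15 and 2.36 UMIs per PANETH cell, against 3.35 and 1.98 per PANETH-PRE cell. All 3 had their highest mean of the 12 classes in PANETH on the TMM scale, but not in unscaled CPM. There Lamp1 was lowest in PANETH (82.2 and 101 unscaled CPM), Lamp2 was highest in PANETH-PRE (151 and 146, with 87.4 and 104 in PANETH), and Cd63 was highest in GOBLET (376 and 486, with 189 and 180 in PANETH).

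The cathepsins, the lysosomal proteases, did not move as a block. Ctsl had 71.9 and 68.9 CPM in PANETH, against 26.2 and 19.4 CPM in PANETH-PRE, the largest log2 change of the 34 members at 1.62 (SE 0.23, edgeR adjusted p = 8.09e-08). Per cell Ctsl had 0.362 and 0.232 UMIs in PANETH, against 0.168 and 0.0854 in PANETH-PRE. Ctsb was higher by 0.56 (SE 0.16, edgeR adjusted p = 0.0189), with 95.6 and 154 CPM in PANETH, against 60 and 111 CPM in PANETH-PRE, so that its libraries overlapped between the classes. Per cell Ctsb had 0.482 and 0.518 UMIs in PANETH, against 0.385 and 0.491 in PANETH-PRE. Ctsd and Ctsz were not called, with log2 changes of -0.36 and 0.29. Ctsd had 113 and 118 CPM in PANETH, against 148 and 147 CPM in PANETH-PRE.

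**Figure D2:**
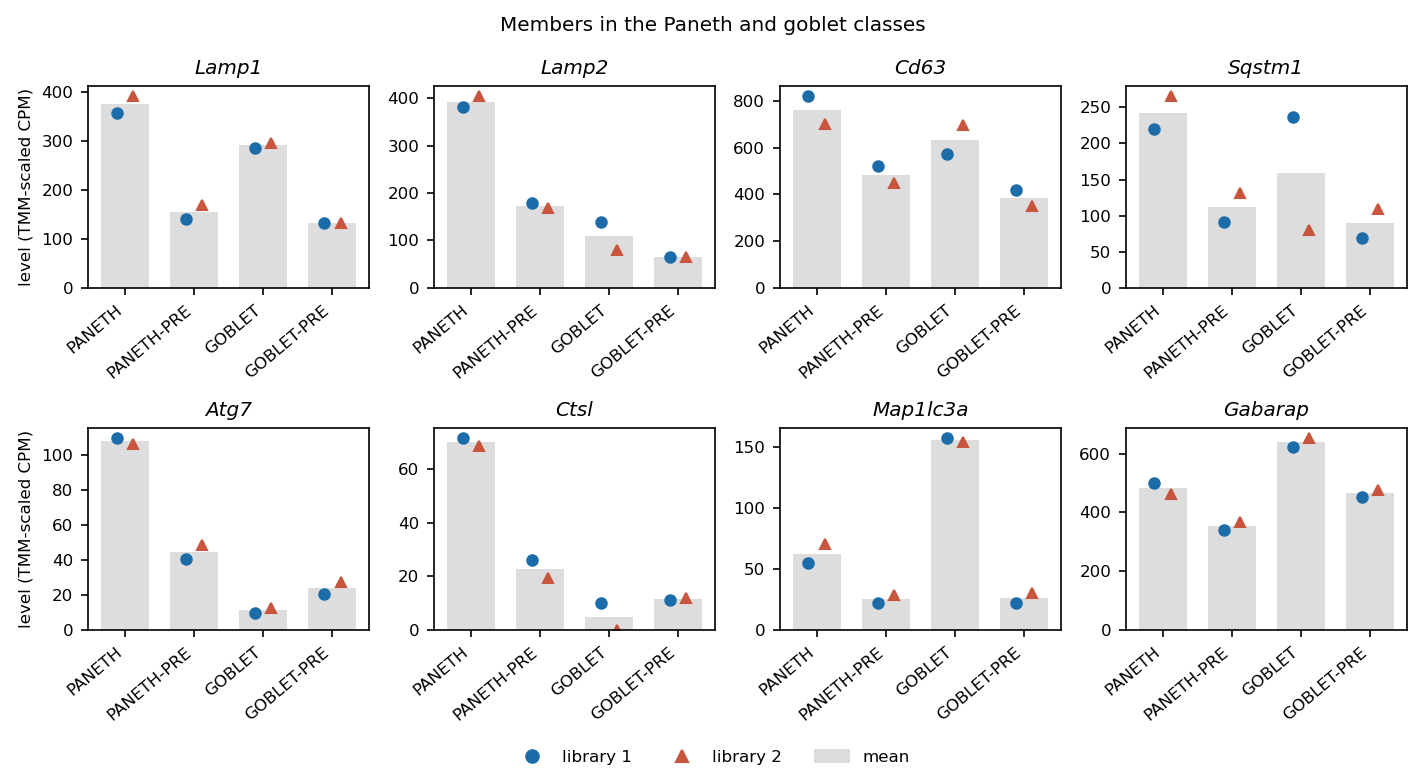
Levels of 8 members in the 4 Paneth and goblet classes (x axis), in TMM-scaled CPM (y axis, from 0); circles are library 1, triangles library 2 and bars their mean. Both PANETH points lie above both PANETH-PRE points for all 8 genes on this scale, and Map1lc3a reaches 158 and 154 CPM in GOBLET; as a share of all UMIs the PANETH levels fall below PANETH-PRE, except for Ctsl in library 2.

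**Figure D3:**
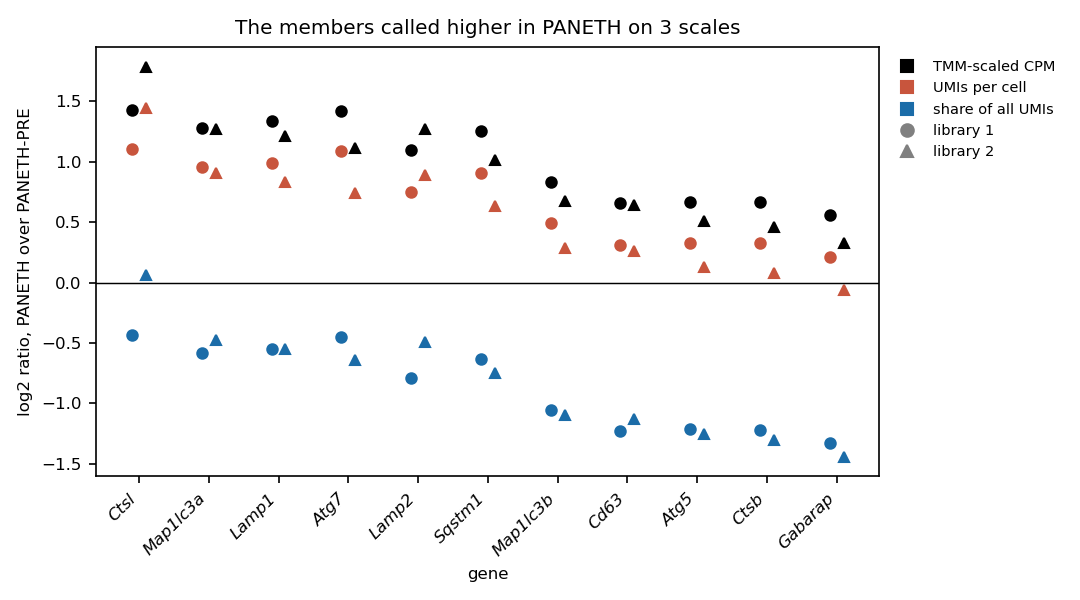
Log2 ratio of PANETH over PANETH-PRE (y axis) for the 11 members called higher (x axis), in each library, as TMM-scaled CPM (black), UMIs per cell (red) and share of all UMIs (blue). UMIs per cell lie above 0 in both libraries for 10 of the 11 and shares lie below 0 for 10 of the 11; Gabarap and Ctsl are the exceptions.

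Promoters are shown for some members that hold CACGTG, the E-box core contained in the CLEAR motif that TFEB binds. Lamp1, Atg7 and Atg5 were among the 11 genes above, and Ctsd is a lysosomal protease that was not called there. Ctsl, a protease among the 11, also holds CACGTG and is not shown. RefSeq promoters (GRCm38.p6, 250 bases before to 50 after each start) were matched for 29 of the 36 members. CACGTG reads the same on both strands, and it occurred in 7 of these 29 (24.1%), against 8.09% of 27025 genes with a promoter and 7.15% of all promoters. The 7 were Atg14, Atg3, Atg5, Atg7, Ctsd, Ctsl and Lamp1. The longer TCACGTGA, which contains it, occurred in Atg3 and Ctsd (6.9%), against 1.12% of genes. The sequences below run 5′ to 3′ on the gene's strand and lie before the RefSeq start, and capitals mark the motif. Lamp1 carries 4 copies between 61 and 15 bases before its start. The Atg7 window lies inside the gene as GENCODE draws it, outside its exons. A second Ctsd copy, inside the longer motif, lies 98 bases before the start and is not shown.
Lamp1, chr8:13159075-13159160, plus strand: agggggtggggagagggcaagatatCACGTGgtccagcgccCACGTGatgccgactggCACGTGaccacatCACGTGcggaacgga
Atg7, chr6:114670939-114670994, plus strand: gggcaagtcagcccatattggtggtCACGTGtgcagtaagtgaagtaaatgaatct
Atg5, chr10:44268300-44268338, plus strand: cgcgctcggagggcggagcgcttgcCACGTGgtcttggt
Ctsd, chr7:142388042-142388077, minus strand: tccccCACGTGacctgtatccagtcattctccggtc
The match to these letters is a description of the sequence and says nothing of binding in these cells.

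GOBLET was set against GOBLET-PRE, the other class rich in mucus and goblet markers. Here 4 members were higher and 1 lower, beside 8.21% of all genes higher and 3.86% lower. With unscaled library sizes 1 member was called higher and 3 lower, beside 352 and 1703 of 10994 genes, and Gabarap turned to -0.25. Counted as UMIs per cell, Map1lc3a alone was higher in GOBLET in both libraries and 26 members were lower. Of all genes 5.77% were higher and 75.7% lower in this way. Map1lc3a had the largest change. It had 158 and 154 CPM in GOBLET, against 21.9 and 30.1 CPM in GOBLET-PRE, a log2 change of 2.58 (SE 0.36, edgeR adjusted p = 2.03e-07). No other class came near both GOBLET libraries, the next sum being 85.1 CPM in EC of replicate 1, with 7.35 CPM in EC of replicate 2. Its share of all UMIs was also higher, at 104 and 107 unscaled CPM in GOBLET, against 24.3 and 33.2 unscaled CPM in GOBLET-PRE.

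Lamp1 was higher in GOBLET too on the TMM scale, with 286 and 296 CPM, against 133 and 133 CPM in GOBLET-PRE (log2 change 1.13, SE 0.20, edgeR adjusted p = 4.75e-06). Its call was lost with unscaled library sizes (0.42). Per cell Lamp1 had 0.69 and 0.571 UMIs in GOBLET, against 0.874 and 0.504 in GOBLET-PRE. Cd63 had 573 and 698 CPM in GOBLET, against 418 and 349 CPM in GOBLET-PRE (log2 change 0.76, SE 0.15), a call lost with TMM over all genes and 0.45 in replicate 1 alone. With unscaled library sizes it was lost too (0.059). Per cell Cd63 had 1.381 and 1.345 UMIs in GOBLET, against 2.744 and 1.322 in GOBLET-PRE. Gabarap had 622 and 654 CPM in GOBLET, against 451 and 478 CPM in GOBLET-PRE (log2 change 0.45, SE 0.14, edgeR adjusted p = 0.0207). Per cell Gabarap was lower in GOBLET, with 1.5 and 1.26 UMIs, against 2.96 and 1.81 in GOBLET-PRE. Its call was lost with every other scaling run, at 0.27 with DESeq2 size factors, 0.085 with TMM over all genes and 0.38 without secreted products, and also with the Wald test, without the library term, with thinned cells and without the cells with most UMIs. Ctsz, a carboxypeptidase of the lysosome, was the member that fell, to 39.5 and 55.6 CPM in GOBLET, against 106 and 105 CPM in GOBLET-PRE (log2 change -1.10, SE 0.35, edgeR adjusted p = 0.0259). Lamp2 had 138 and 80.3 CPM in GOBLET, against 64.1 and 65.1 CPM in GOBLET-PRE, and was not called (log2 change 0.67). The GOBLET sums hold 154169 and 232707 UMIs, and the median of all genes in this comparison was -0.074, against -0.44 with TMM over all genes and -0.77 with unscaled library sizes. Of 18 dissociation and stress genes, 9 were lower in GOBLET, and their part in the result was not tested.

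PANETH set directly against GOBLET had 7 members higher and 2 lower, beside 8.56% of all genes higher and 10.3% lower. The median log2 change of the 34 was 0.12, below the 0.25 of all genes tested. With unscaled library sizes the counts turned to 2 higher and 16 lower, and the direction of Map1lc3b and Sqstm1 flipped. Atg7 had 110 and 107 CPM in PANETH, against 9.87 and 12.4 CPM in GOBLET, which rest on 262 and 3 UMIs. That is a ratio of 9.5 with a 95% exact counting interval of 3.22 to 46.4. Ctsl had 170 UMIs in PANETH and 1 in GOBLET, a ratio of 18.5 with an interval of 3.28 to 735. Gabarapl1 had 23.7 and 40.9 CPM in PANETH and 0 of 386876 UMIs in GOBLET, which makes it at least 2.9-fold higher in PANETH at a limit of 3 counts over both GOBLET libraries on the TMM scale. As a share of all UMIs Gabarapl1 had 8.05 unscaled CPM in PANETH over both libraries, against a limit of 7.75 in GOBLET, so that the bound is 1.04-fold. Per cell the 3 genes had 0.555 and 0.36 UMIs (Atg7), 0.362 and 0.232 (Ctsl) and 0.119 and 0.138 (Gabarapl1) in PANETH, against at most 0.0238 in GOBLET. Most genes went this way per cell. In both libraries 24 of the 34 members were higher in PANETH and 2 lower, beside 67.4% and 10.7% of all genes.

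Lamp2 had 381 and 406 CPM in PANETH, against 138 and 80.3 CPM in GOBLET (log2 change 1.94, SE 0.25, edgeR adjusted p = 1.15e-09), and its share of all UMIs did not go the same way in both libraries. Per cell Lamp2 had 1.92 and 1.37 UMIs in PANETH, against 0.333 and 0.155 in GOBLET, and Ctsz had 0.775 and 0.474 in PANETH, against 0.0952 and 0.107 in GOBLET. Per cell 67.4% of all genes were higher in PANETH in both libraries. Ctsz had 154 and 141 CPM in PANETH, against 39.5 and 55.6 CPM in GOBLET (log2 change 1.57, SE 0.34). The Ctsz call was lost with unscaled library sizes (0.091), and its share of all UMIs went opposite ways in the 2 libraries (ratios of 1.36 and 0.93). Map1lc3b was higher by 0.83 (SE 0.24, edgeR adjusted p = 0.00713), a call lost with thinned cells. Sqstm1 was called at 0.81 (SE 0.29, edgeR adjusted p = 0.0421), but it had 219 and 266 CPM in PANETH, against 237 and 80.3 CPM in GOBLET. Its direction was thus opposite in replicate 1, where it was -0.11. The Sqstm1 call was lost without the library term and without the 5% of cells with most UMIs. Map1lc3a and Gabarap were the 2 that were lower in PANETH, with log2 changes of -1.29 (SE 0.34) and -0.40 (SE 0.15). Per cell Map1lc3a had 0.275 and 0.237 UMIs in PANETH, against 0.381 and 0.298 in GOBLET, while Gabarap was higher in PANETH, with 2.52 and 1.56 UMIs per cell, against 1.5 and 1.26 in GOBLET. The Gabarap call was lost with DESeq2 size factors (-0.28), TMM over all genes (-0.19), no secreted products (-0.31), the Wald test, no low-count filter and no library term. The Map1lc3a call was lost with thinned cells (-1.25). Lamp1 and Cd63 were not called, with log2 changes of 0.37 and 0.23. Of the dissociation and stress genes, 12 of 18 were higher in PANETH, and their part in the result was not tested.

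The PANETH against PANETH-PRE change minus the GOBLET against GOBLET-PRE change was tested as one contrast. It called 3 members higher and 2 lower, beside 3.38% of all genes higher and 5.07% lower. Atg7 changed by 1.27 in PANETH and by -1.07 in GOBLET, each against its PRE class, a difference of 2.34 (SE 0.69, edgeR adjusted p = 0.0165). Ctsz had log2 changes of 0.29 (not called) and -1.10, a difference of 1.38 (SE 0.38, edgeR adjusted p = 0.0081). Ctsl had a difference of 3.19 (SE 1.04, edgeR adjusted p = 0.0369), with 1 UMI in GOBLET. Its ratio of GOBLET to GOBLET-PRE was 0.336, with an interval of 0.00847 to 1.89, and that change was not called. Ctsd had log2 changes of -0.36 in PANETH and 0.70 in GOBLET, neither of them called, and a difference of -1.06 (SE 0.30, edgeR adjusted p = 0.011). Map1lc3a rose in both and had a difference of -1.28 (SE 0.42, edgeR adjusted p = 0.0438), which was lost under all 3 other scalings (-0.97 to -1.22) and the Wald test. The Ctsd call was lost with TMM over all genes and the Ctsl call with the Wald test, and Ctsl was 1.58 in replicate 1 alone and 5.82 in replicate 2 alone, where GOBLET had 0 UMIs and the value is no bound. With unscaled library sizes 12 members were called, all lower, and the calls of Atg7, Ctsl and Ctsz were lost. Without the library term 1 was called, and Atg7, Ctsl, Ctsd and Map1lc3a lost their calls. With thinned cells Atg7, Ctsl, Ctsz and Map1lc3a lost theirs. In this contrast 8 of 18 dissociation and stress genes were higher and 0 lower, and their part in the result was not tested.

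**Figure D4:**
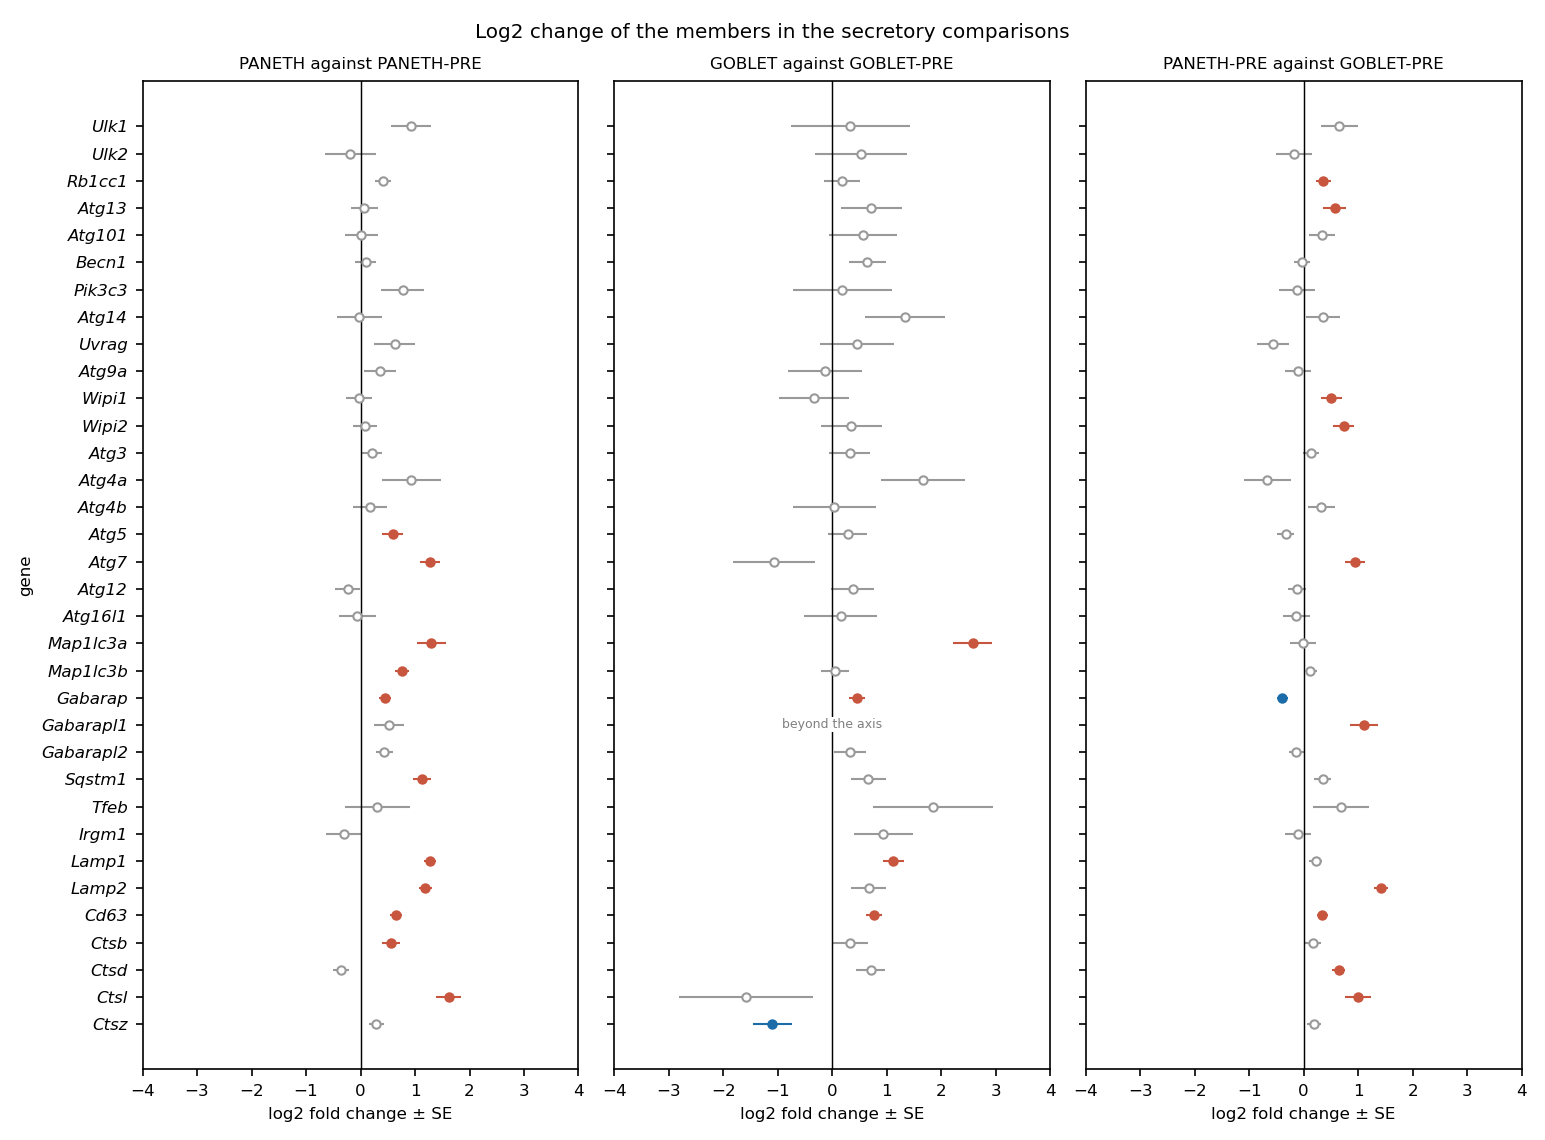
Log2 fold change (x axis, with its standard error) of the 34 tested members (y axis) in PANETH against PANETH-PRE, GOBLET against GOBLET-PRE and PANETH-PRE against GOBLET-PRE, from edgeR on TMM-scaled sums. Filled red points were called higher (11, 4 and 10), filled blue points lower (0, 1 and 1), open points were not called, and Gabarapl1 in GOBLET, with 0 counts, is off the axis; with unscaled library sizes the 11 points of the left panel, Gabarap in the middle panel and Cd63 in the right panel change sign.

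The PRE classes differed too. On the TMM scale PANETH-PRE against GOBLET-PRE had 10 members higher and 1 lower, beside 14.1% of all genes higher and 10% lower. With unscaled library sizes the counts turned to 4 higher and 6 lower, beside 654 and 2834 of 10994 genes. Counted as UMIs per cell, 18 of the 34 members were higher in both libraries and 8 lower, beside 44.1% and 23.6% of all genes. Lamp2 led, with 178 and 167 CPM in PANETH-PRE, against 64.1 and 65.1 CPM in GOBLET-PRE (log2 change 1.42, SE 0.12, edgeR adjusted p = 1.25e-16). Gabarapl1 had 17.2 and 28 CPM in PANETH-PRE, against 8.93 and 11.9 CPM in GOBLET-PRE (log2 change 1.11, SE 0.25). Atg7 had 40.7 and 48.9 CPM in PANETH-PRE, against 20.2 and 27.2 CPM in GOBLET-PRE (log2 change 0.94, SE 0.18, edgeR adjusted p = 3.25e-05). Ctsl had 26.2 and 19.4 CPM in PANETH-PRE, against 11 and 12.1 CPM in GOBLET-PRE (log2 change 1.00, SE 0.24), and Ctsd had 148 and 147 CPM in PANETH-PRE, against 89.2 and 100 CPM in GOBLET-PRE (0.64, SE 0.12). For these 5 genes the groups did not overlap.

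Of the 12 initiation and nucleation genes, 4 were also called higher in PANETH-PRE and 0 lower, beside 14.1% and 10% of all genes. Wipi2 and Wipi1, which bind phosphatidylinositol 3-phosphate on the forming membrane, were higher by 0.73 (SE 0.19) and 0.51 (SE 0.19). Wipi2 had 43.4 and 35.2 CPM in PANETH-PRE, against 23.7 and 23.4 CPM in GOBLET-PRE. Atg13 and Rb1cc1, partners of ULK1, were higher by 0.57 (SE 0.21) and 0.36 (SE 0.13). Cd63 was higher by 0.34 (SE 0.10, edgeR adjusted p = 0.00749), a direction that turned to -0.02 with unscaled library sizes. Gabarap was the member that was lower, with 339 and 368 CPM in PANETH-PRE, against 451 and 478 CPM in GOBLET-PRE (log2 change -0.39, SE 0.10). Without the library term 6 members were called, and 4 with cells thinned to 2000 UMIs. The calls of Rb1cc1, Atg13, Wipi1 and Cd63 were lost with TMM over all genes and without the library term, and those of Atg13, Wipi1 and Cd63 with the Wald test. Gabarap also lost its call without the library term. Wipi1 lost its call with DESeq2 size factors too, and both Wipi1 and Rb1cc1 with no filter. The calls of Rb1cc1, Atg13, Wipi1 and Wipi2 were all lost with thinned cells and with unscaled library sizes. With thinned cells those of Atg7, Ctsl and Cd63 were lost as well. Of the dissociation and stress genes 5 were higher and 1 lower in PANETH-PRE, and their part in the result was not tested.

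SEC-PRO against ISC had 9 members higher and 2 lower, beside 19.3% of all genes higher and 15.2% lower. Atg7 had 20.1 and 26 CPM in SEC-PRO, against 6.84 and 12.7 CPM in ISC, a log2 change of 1.14 (SE 0.19, edgeR adjusted p = 4.06e-07). Of the ATG8 genes 3 were higher, Gabarapl2 by 0.55 (SE 0.12), Gabarap by 0.47 (SE 0.10) and Gabarapl1 by 0.58 (SE 0.23). The Gabarapl1 call was lost under all 3 other scalings (0.45 to 0.53), with the Wald test, no filter, no library term, thinned cells (0.29) and without the cells with most UMIs. Gabarap had 250 and 274 CPM in SEC-PRO, against 164 and 212 CPM in ISC, and Gabarapl2 had 68.3 and 68.3 CPM in SEC-PRO, against 50.1 and 43.3 CPM in ISC. Sqstm1 had 45.4 and 52.2 CPM in SEC-PRO, against 27.9 and 37.2 CPM in ISC. Atg13, Sqstm1, Cd63, Atg12 and Rb1cc1 were higher by 0.37 to 0.68, and all 5 calls were lost with the Wald test and without the library term. Ctsb fell to 75.5 and 84.1 CPM in SEC-PRO, against 123 and 146 CPM in ISC (log2 change -0.74, SE 0.12, edgeR adjusted p = 4.17e-07). Lamp1 fell to 103 and 98.1 CPM in SEC-PRO, against 146 and 161 CPM in ISC (log2 change -0.61, SE 0.10). In these data Lamp1 was thus lower in SEC-PRO than in ISC, and higher in PANETH and GOBLET than in their PRE classes on the TMM scale. The DESeq2 Wald test called 6 members (3 higher and 3 lower) and the fit without the library term 4, and 13 of 18 dissociation and stress genes were higher in SEC-PRO, whose part was not tested.

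GP against SEC-PRO had 4 members higher and 0 lower, beside 4.38% of all genes higher and 12.7% lower. At an unadjusted edgeR p under 0.05, 7 were higher and 1 lower, and the DESeq2 Wald test called 3 higher and 0 lower. The 4 were Ctsd (log2 change 0.40, SE 0.12), Gabarap (0.37, SE 0.10), Map1lc3b (0.34, SE 0.11) and Cd63 (0.29, SE 0.10). Ctsd had 85 and 81.4 CPM in GP, against 60.8 and 66.2 CPM in SEC-PRO, and Map1lc3b had 117 and 116 CPM in GP, against 88.6 and 95.5 CPM in SEC-PRO. Of the dissociation and stress genes 3 were higher and 2 lower in GP, and their part in the result was not tested. None of the 4 was called without the library term, and 7 members were called under each of 3 other scalings.

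TUFT cells, the chemosensory cells of the epithelium, had 10 members higher and 4 lower than ISC, beside 15.5% of all genes higher and 13.6% lower. By role 3 of 5 initiation, 1 of 7 nucleation, 1 of 7 conjugation and 3 of 5 ATG8 genes were higher, with Sqstm1 and Ctsd. Ulk1, the kinase that starts autophagy, had 27.4 and 23 CPM in TUFT, against 7.6 and 6.4 CPM in ISC (log2 change 1.92, SE 0.35, edgeR adjusted p = 5.15e-06). Its paralogue Ulk2 had 18.7 and 21.1 CPM in TUFT, against 6.58 and 7.12 CPM in ISC (log2 change 1.42, SE 0.40). Rb1cc1 and Atg14, a subunit that directs the lipid kinase to autophagy, were higher by 0.83 (SE 0.16) and 1.26 (SE 0.33). Rb1cc1 had 104 and 91.9 CPM in TUFT, against 56.7 and 52.6 CPM in ISC, and Atg14 had 21.1 and 34.5 CPM in TUFT, against 12.2 and 11.2 CPM in ISC. Gabarapl2 had 133 and 91.9 CPM in TUFT, against 50.1 and 43.3 CPM in ISC (log2 change 1.30, SE 0.16, edgeR adjusted p = 2.15e-10). Map1lc3a had 21.1 and 24.9 CPM in TUFT, against 8.61 and 8.77 CPM in ISC (log2 change 1.45, SE 0.40). Atg3, the E2-like enzyme that hands ATG8 proteins to lipid, had 97 and 59.4 CPM in TUFT, against 46.9 and 42.4 CPM in ISC (0.84, SE 0.18). Sqstm1, Gabarap and Ctsd were higher by 0.66 to 0.77. Sqstm1 lost its call with the Wald test and without the library term, and Atg14 with thinned cells (0.97). Of the dissociation and stress genes 4 of 18 were higher in TUFT, and their part in the result was not tested.

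The 4 members that were lower in TUFT were 2 lysosomal membrane genes and 2 cathepsins. In the other lysosomal lists 7 of 17 vacuolar ATPase genes were higher and 0 lower. Of 35 hydrolases 5 were higher and 2 lower, and of 23 other lysosomal membrane genes 2 were higher and 1 lower. These counts stand beside 15.5% of all genes higher and 13.6% lower. Ctsz fell to 37.3 and 57.5 CPM in TUFT, against 115 and 103 CPM in ISC (log2 change -1.25, SE 0.19, edgeR adjusted p = 6.81e-08). Lamp2 fell to 48.5 and 24.9 CPM in TUFT, against 57.7 and 69.1 CPM in ISC (log2 change -0.72, SE 0.22), with -0.25 in replicate 1 and -1.45 in replicate 2. Ctsb and Cd63 were lower, with log2 changes of -0.70 (SE 0.17) and -0.38 (SE 0.15). The Cd63 call was lost without secreted products (-0.36), with unscaled library sizes (-0.32), without the library term and with thinned cells. The Ctsb call was lost without the library term and the Lamp2 call with thinned cells. Cd63 had 114 and 125 CPM in TUFT, against 146 and 159 CPM in ISC. Ctsz, Lamp2 and Cd63 had their lowest mean of the 12 classes in TUFT.

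ENTERO-PRO had 12 members higher than ISC and 0 lower, beside 18.7% of all genes higher and 18.4% lower. At an unadjusted edgeR p under 0.05, 14 were higher and 0 lower, and the DESeq2 Wald test called 12 higher and 0 lower. The class held 14390 and 6025 unscaled CPM of 6 absorptive markers such as Apoa1, against at most 1706 in the other classes. It also held 51790 and 54410 unscaled CPM of the goblet markers, against 9678 and 15880 in ISC. Higher were 3 of 4 cathepsins, 2 of 3 lysosomal membrane genes and 3 of 5 ATG8 genes. The dissociation and stress genes had 8 of 18 higher and 2 lower in ENTERO-PRO, and their part in the result was not tested. Ctsb had 186 and 207 CPM in ENTERO-PRO, against 123 and 146 CPM in ISC (log2 change 0.55, SE 0.14), and Ctsz had 169 and 164 CPM in ENTERO-PRO, against 115 and 103 CPM in ISC (0.62, SE 0.13). Both were highest in ENTERO-PRO among all classes. Lamp1, Cd63 and Ctsd were higher by 0.59 to 0.70. Ctsd had 79 and 95.6 CPM in ENTERO-PRO, against 45.3 and 60.7 CPM in ISC, and Cd63 had 270 and 226 CPM in ENTERO-PRO, against 146 and 159 CPM in ISC. Gabarap had 346 and 406 CPM in ENTERO-PRO, against 164 and 212 CPM in ISC (log2 change 0.99, SE 0.11, edgeR adjusted p = 2.18e-12). Gabarapl2 had 114 and 86.8 CPM in ENTERO-PRO, against 50.1 and 43.3 CPM in ISC (log2 change 1.10, SE 0.16), and Map1lc3a had 16.9 and 18.7 CPM in ENTERO-PRO, against 8.61 and 8.77 CPM in ISC (1.07, SE 0.39). The Map1lc3a call was lost with unscaled library sizes (0.90), without the library term, with thinned cells (0.32) and without the 5% of cells with most UMIs. Those of Sqstm1 and Ctsb were lost without the library term. Atg4a, a protease that trims ATG8 proteins, and Atg9a, the membrane protein that supplies lipid, were higher by 1.60 (SE 0.47) and 1.41 (SE 0.32). Atg9a had 15.5 and 29.7 CPM in ENTERO-PRO, against 6.84 and 10.1 CPM in ISC. Atg4a had 7.06 and 15.4 CPM in ENTERO-PRO, resting on 5 and 14 UMIs, with a log2 change of 0.77 in replicate 1 alone, against 3.8 and 3.72 CPM in ISC. Sqstm1 and Rb1cc1 were the other 2, by 0.84 and 0.64.

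**Figure D5:**
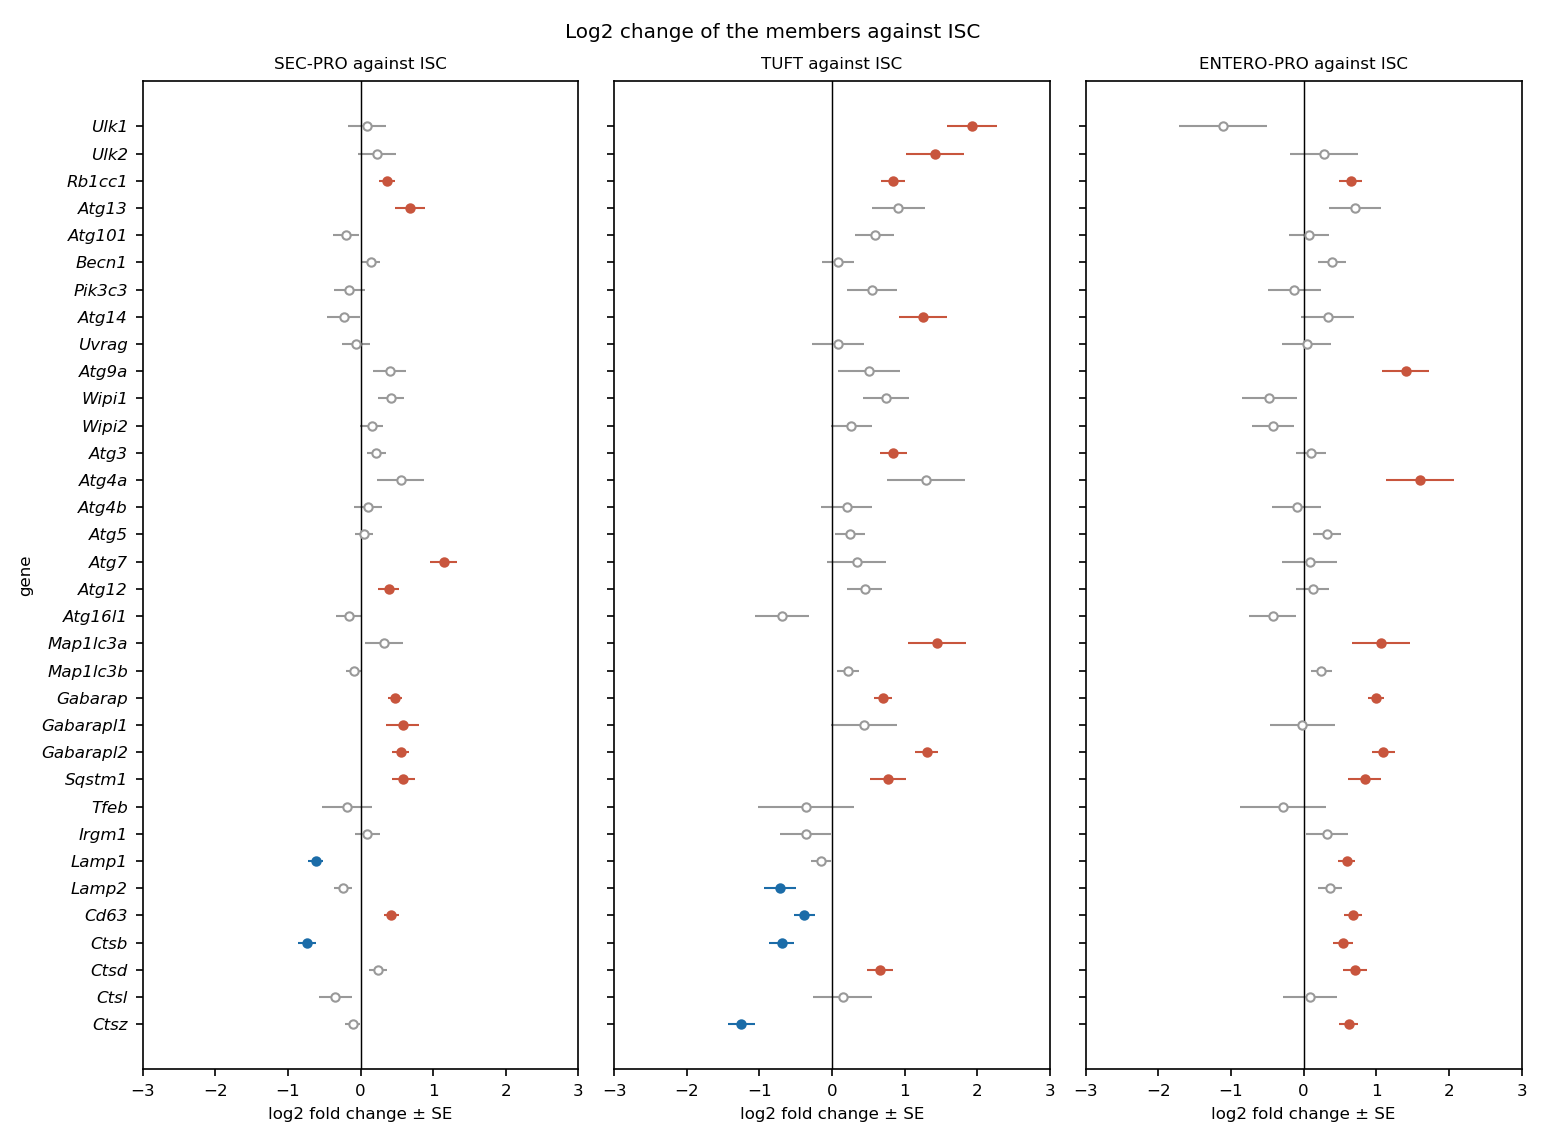
Log2 fold change (x axis, with its standard error) of the 34 tested members (y axis) in SEC-PRO, TUFT and ENTERO-PRO, each against ISC, from edgeR on TMM-scaled sums. Filled red points were called higher (9, 10 and 12), filled blue points lower (2, 4 and 0) and open points were not called; the 3 panels share the ISC sums, and no called point here changes sign with unscaled library sizes.

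Among the hormone classes, EC and NON-EC together against EEC-PRE had 2 members higher and 2 lower, beside 5.86% of all genes higher and 4.11% lower. Tfeb had 30.4 and 29.4 CPM in EC and 14.5 and 16.3 CPM in NON-EC, against 3.36 and 0 CPM in EEC-PRE. These levels rest on 27 UMIs in EC and NON-EC and 1 in EEC-PRE, a ratio of 10.4 with a 95% exact counting interval of 1.71 to 425. Wipi1 had 48.6 and 33.1 CPM in EC and 58 and 56 CPM in NON-EC, against 13.4 and 18.2 CPM in EEC-PRE (log2 change 1.62, SE 0.50, edgeR adjusted p = 0.023). Map1lc3b had 103 and 132 CPM in EC and 124 and 100.3 CPM in NON-EC, against 181 and 187 CPM in EEC-PRE (log2 change -0.64, SE 0.20). Cd63 had 152 and 191 CPM in EC and 205 and 163 CPM in NON-EC, against 306 and 269 CPM in EEC-PRE (-0.67, SE 0.17). Tfeb was not called with the DESeq2 Wald test, which called 2 members, both lower. Wipi1 also lost its call there. Of 18 dissociation and stress genes 6 were higher and 0 lower in EC and NON-EC, and their part in the result was not tested. The EC sums hold 129631 and 214067 UMIs.

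Other genes of the pathway were counted from fixed lists. The vacuolar ATPase, the proton pump that acidifies lysosomes and granules, had 17 tested genes. Of these, 11 were higher in ENTERO-PRO, 9 in SEC-PRO and 7 in TUFT, each against ISC, where 18.7%, 19.3% and 15.5% of all genes were higher. In PANETH-PRE 6 were lower than in GOBLET-PRE, and in PANETH 5 were lower than in GOBLET, beside 10% and 10.3% of all genes. In PANETH against PANETH-PRE 3 were higher and 1 lower, beside 5.36% and 2.79% of all genes. Atp6v0a2 averaged 47.9 ± 7.2 CPM in PANETH and 90.9 ± 8.6 CPM in PANETH-PRE (SD, n = 2 each; log2 change -0.93, SE 0.18), while Atp6v0e averaged 123 ± 13.1 CPM in PANETH and 64.9 ± 11.6 CPM in PANETH-PRE.

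Among 18 tested selective autophagy receptors, 5 were higher and 0 lower in PANETH than in PANETH-PRE, beside 5.36% and 2.79% of all genes. Ccpg1, an endoplasmic reticulum receptor, averaged 71.9 ± 6.45 CPM in PANETH and 22.8 ± 3.82 CPM in PANETH-PRE (SD, n = 2 each; log2 change 1.65, SE 0.23, edgeR adjusted p = 5.66e-08). Nbr1, a relative of p62, averaged 123 ± 2.58 CPM in PANETH and 69.4 ± 16.9 CPM in PANETH-PRE. In GOBLET against GOBLET-PRE 3 were higher and 1 lower, beside 8.21% and 3.86% of all genes, led by Optn, which averaged 227 ± 112 CPM in GOBLET and 35.2 ± 1.65 CPM in GOBLET-PRE (log2 change 2.60, SE 0.29). All these PANETH directions are those of the TMM scale.

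Of 35 other lysosomal hydrolases tested, 4 were higher and 1 lower in PANETH than in PANETH-PRE on the TMM scale, beside 5.36% and 2.79% of all genes, and 12 were higher and 0 lower in ENTERO-PRO than in ISC, beside 18.7% and 18.4%. Lgmn, the asparaginyl endopeptidase, averaged 88 ± 57.1 CPM in PANETH and 29.8 ± 10.6 CPM in PANETH-PRE (SD, n = 2 each; log2 change 1.54, SE 0.21), a wide spread between libraries. Of 9 tested immunity-related GTPases and NOD signalling genes, 4 were higher and 0 lower in GOBLET than in GOBLET-PRE, beside 8.21% and 3.86% of all genes, and 0 were called in PANETH against PANETH-PRE by edgeR. Gbp2 averaged 114 ± 90.7 CPM in GOBLET and 4.06 ± 2.43 CPM in GOBLET-PRE (log2 change 4.66, SE 0.51). In PANETH against PANETH-PRE, 1 of 14 fusion genes, 2 of 15 other initiation and nucleation genes, 0 of 8 other conjugation genes, 1 of 25 mTORC1 and TFE regulators and 0 of 23 other lysosomal membrane genes were higher, and none of these was lower.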

How the data were processed

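Live Tom+ crypt cells of the ileum gave 10x 3′ libraries with the v3.1 chemistry, as the labels' protocols state. Cell Ranger 3.0.2, STAR and mm10 are named in the submitters' processing notes. The deposited count matrices hold whole-number UMI counts, per the file headers, and the authors' deposited cell table names the class of each kept cell. The sources used here do not say how classes were assigned or doublets handled, and no doublets were removed here. They also do not say whether counting used strand. Of the members, 12 overlap a gene on the opposite strand and 2 (Map1lc3b and Ctsd) one on their own strand that is also in the matrices, and their counts are less certain.

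Listed cells held 32656481 UMIs in replicate 1 and 27014983 in replicate 2. Counts were added up per class and library (24 sums) and fitted in R 4.3.3 with edgeR 4.0.16 (quasi-likelihood, robust, class and library as terms, 11 residual degrees of freedom). TMM factors used genes averaging 6 or more on the log2 CPM scale. The function filterByExpr kept 10994 genes. The same 2 libraries hold every class, so the library term pairs the sums. Library differences (3814 genes) correlated with a median r of 0.297 between classes, 0.0551 to 0.777 in 66 pairs. The standard error is the log2 change divided by the root of the F statistic. The fit was checked on simulated counts. With 2 libraries, p-values measure the spread between these samples, which may be technical.

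All 36 members may be named, and up to 8 per comparison with the largest called change in the same direction in both libraries are given with their values. From each other list, up to 3 genes with the smallest p may be named. For 16 members (Lrrk2, Nod2, Irgm1, Atg16l1, Atg7, Sqstm1, Map1lc3b, Gabarap, Tfeb, Lamp1, Lamp2, the 4 cathepsins and Cd63) levels across classes are always given. Members and lists were chosen with earlier results of these data known. Exact intervals and the 3-count limit cover counting error only. Positions are from GENCODE M21 on mm10. Alternatives were DESeq2 1.42.0, other scalings, filters, thinned cells and left-out libraries. The fit with unscaled library sizes was chosen after seeing the data.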

Additional observations from a re-analysis of the deposited data

Results flagged for a closer look

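The change against the PRE class differed between PANETH and GOBLET for 5 members in the test of the difference itself (PANETH against PANETH-PRE minus GOBLET against GOBLET-PRE, edgeR adjusted p under 0.05). The difference in log2 change was 2.34 for Atg7, 3.19 for Ctsl, 1.38 for Ctsz, -1.06 for Ctsd and -1.28 for Map1lc3a. The GOBLET side of Atg7 rests on 3 UMIs and that of Ctsl on 1, and neither gene was called in GOBLET against GOBLET-PRE. In barcodes of at most 50 UMIs, which hold free RNA, Atg7 had 21.5 and 21.4 unscaled CPM and Ctsl 30.6 and 37.7. GOBLET cells had 6.49 and 8.59 unscaled CPM of Atg7 and 6.49 and 0 of Ctsl.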

How the results depend on the processing

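The number of members called stayed within 1.5 times the value reported in 86 of 110 combinations of comparison and setting. This count does not consider direction. Among the 86, unscaled library sizes turned GOBLET against GOBLET-PRE from 4 higher and 1 lower to 1 higher and 3 lower. They turned PANETH-PRE against GOBLET-PRE from 10 higher and 1 lower to 4 higher and 6 lower. With unscaled library sizes the number called was 31 in PANETH against PANETH-PRE (11 reported), 18 in PANETH against GOBLET (9) and 12 in the difference between the PANETH and GOBLET changes (5). There the log2 changes in PANETH against PANETH-PRE turned to -1.235 for Atg5, -0.55 for Atg7, -0.52 for Map1lc3a, -1.07 for Map1lc3b, -1.38 for Gabarap, -0.70 for Sqstm1, -0.55 for Lamp1, -0.64 for Lamp2, -1.18 for Cd63, -1.26 for Ctsb and -0.21 for Ctsl. This follows from the construction of the setting, which moved the median of all genes to -1.71. It also turned Gabarap in GOBLET against GOBLET-PRE (-0.25), Map1lc3b (-0.65) and Sqstm1 (-0.67) in PANETH against GOBLET, and Cd63 in PANETH-PRE against GOBLET-PRE (-0.0202). Of 86 called values, all 86 kept their direction under the other scalings, DESeq2, no filter and no library term, and 71 with unscaled library sizes. The calls themselves were lost for 32 of 86 without the library term, 36 of 85 with thinned cells, 19 with the Wald test, 13 with TMM over all genes, 7 each with DESeq2 size factors and without the 5% of cells with most UMIs, 6 without secreted products, 4 with no filter and 16 with unscaled library sizes, where 15 more reversed.

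Without the library term, which is the replicate block that pairs the sums, 6 members were called in PANETH-PRE against GOBLET-PRE, 0 in GP against SEC-PRO (4 reported; the unadjusted counts of the reported fit were 7 higher and 1 lower), 4 in SEC-PRO against ISC and 1 in the difference. With cells thinned to 2000 UMIs the counts were 5 in PANETH against PANETH-PRE, 4 in PANETH-PRE against GOBLET-PRE, 2 in GP against SEC-PRO, 1 in EC and NON-EC against EEC-PRE and 1 in the difference. In GP against SEC-PRO, size factors of DESeq2, library sizes without secreted products and TMM over all genes gave 7 each. TMM over all genes gave 3 in GOBLET against GOBLET-PRE. The DESeq2 Wald test gave 6 in SEC-PRO against ISC and 2 in EC and NON-EC against EEC-PRE. Requiring an average log2 CPM of 5 left fewer genes: 5 in PANETH against GOBLET, 5 in PANETH-PRE against GOBLET-PRE, 2 in EC and NON-EC against EEC-PRE, 3 in the difference and 15 over any class. Without the 5% of cells with most UMIs the difference had 3. Except where the construction is named, the cause was not tested.

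Leaving out a replicate left no residual degrees of freedom and gave values only. Sqstm1 in PANETH against GOBLET ranged from -0.11 to 1.72, and the other 85 called values kept their direction. Of the 86, 15 moved by over 1.5 times when 1 replicate was left out. Beyond those given with the results, Ctsl in PANETH against GOBLET ranged from 2.77 to 6.47 (Ctsl and Gabarapl1 there have GOBLET sums of 0 and give no bound), Atg13 in SEC-PRO against ISC from 0.36 to 1.13, Gabarapl1 there from 0.35 to 0.89, Atg13 and Ctsl in PANETH-PRE against GOBLET-PRE fell to 0.33 and 0.65 without replicate 1, and in TUFT against ISC Atg3, Sqstm1 and Ctsz were 0.48, 0.42 and -0.83 without replicate 1 and Atg14 was 0.76 without replicate 2. Depth limits GOBLET and EC most, with 42 cells each in replicate 1, and Lrrk2, Nod2 and Tfeb in every class.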
